A study of Homo sapiens with 16 samples.

Results

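NRF2 is the transcription factor that raises the antioxidant and detoxifying enzymes of a cell. At rest it is bound by KEAP1, which hands it to a CUL3 ubiquitin ligase for degradation, and oxidants or electrophiles release it from this control. Free NRF2 pairs with small MAF proteins at antioxidant response elements, where the repressor BACH1 competes with it, above all at the gene for haem oxygenase. In bronchial epithelium, which meets inhaled oxidants, NQO1, GCLC, GCLM, TXNRD1 and the aldo-keto reductases are textbook readouts of the pathway.

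The 9 target genes NQO1, HMOX1, GCLM, GCLC, TXNRD1, SRXN1, SLC7A11, AKR1C1 and AKR1B10 were followed, chosen by name among the 42665 gene names of the array. They had 12 of its 58201 probes. The cells were 16HBE, human bronchial epithelial cells immortalised with SV40 large T antigen, either unedited (16HBE-WT) or edited by CRISPR/Cas9 so that exon 14 of MET is skipped (16HBE-ex14). MET is the receptor of hepatocyte growth factor (HGF). 16HBE-ex14 was 1 clone (clone F) on these arrays, so that the edit and other differences of the clone cannot be told apart. All cells were without serum for 2 h, and then received either HGF at 20 ng/ml for 24 h (16HBE-WT+HGF, 16HBE-ex14+HGF) or none (16HBE-WT, 16HBE-ex14), with 4 one-colour arrays per group and 16 in all. The study's methods place a week of culture between replicates, but the files do not say which array belongs to which week. Replicates are numbered here by slide and row of the array, and p-values measure the spread between these 4 cultures of each line.

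A level is given as log2 of the processed signal minus the 75th percentile of the same array, so that 0 is the 75th percentile. Levels of different probes are not comparable, because each probe has its own binding strength. A probe was tested with limma if it was well above background on at least 4 arrays, which 34600 probes were, and it was called at an adjusted p below 0.05 (Benjamini-Hochberg over all tested probes) and a fold change above 1.5. The 75th percentile lay between 139.5 and 213 intensity units on the 16HBE-WT arrays, HGF or not, and between 201.8 and 262.8 on the 16HBE-ex14 arrays, and 49% to 60.3% of probes were well above background. All 7 epithelial marker genes, EPCAM and CDH1 among them, were above background on every array. Of these 7, 1 was called lower in the edited clone than in unedited cells, with and without HGF. The mean KRT5 level was 2.62 in unedited and 0.05 in edited cells without HGF, and 2.00 and -2.26 with it. The KRT18 probe was the brightest of the 7 (mean over all arrays 10.04), and the TP63 probe was dim (-3.58). In contrast, 4 of 6 fibroblast markers and 1 of 2 endothelial markers, PECAM1, were above background on none. The fibroblast markers COL1A1 and PDGFRB, the leukocyte marker PTPRC and the endothelial marker CDH5 had a dim probe above background on all 16 arrays. On the linear scale the epithelial markers summed to 1520 to 2030 times the 75th percentile, against 0.336 to 0.919 for the fibroblast markers 0.144 to 0.353 for the endothelial markers and 0.199 to 0.53 for PTPRC. The MET probe was at 4.97 in 16HBE-WT and 5.10 in 16HBE-ex14 cells (difference 0.14, limma adjusted p = 0.445), which says nothing about exon 14 itself, and both probes of HGF were above background on none of the 16 arrays and were not tested.

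Of the 9 genes, 8 could be tested. AKR1C1, an aldo-keto reductase that reduces steroids and lipid aldehydes, had 3 probes that were well above background on 1, 0 and 0 of the 16 arrays, so no level and no difference is given for it. One of the 3 also matches transcripts of AKR1C2, a gene name that the array does not carry. AKR1B10 was measured close to background, and NQO1, HMOX1, GCLC, GCLM, SLC7A11, TXNRD1 and SRXN1 were well above background on all 16 arrays. No member spot was saturated.

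One limit applies to GCLM, the modifier subunit of glutamate-cysteine ligase. Its only probe shared a run of at least 16 bases with 7 other probes in the same orientation, the longest with CYP2W1 at 23 bases, whereas no other member probe shared such a run with any probe. Over the 16 arrays the GCLM level had a median Pearson r of 0.73 with the 7 probes, and all 7 were positive, from 0.35 for RINL, measured on 15 arrays, to 0.97 for KRBA2. Against all tested probes the median r of GCLM was -0.02. This comparison was made after the values had been seen, the arrays are common to all probes, and how far the shared run sets the GCLM signal was not tested.

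**Figure D1:**
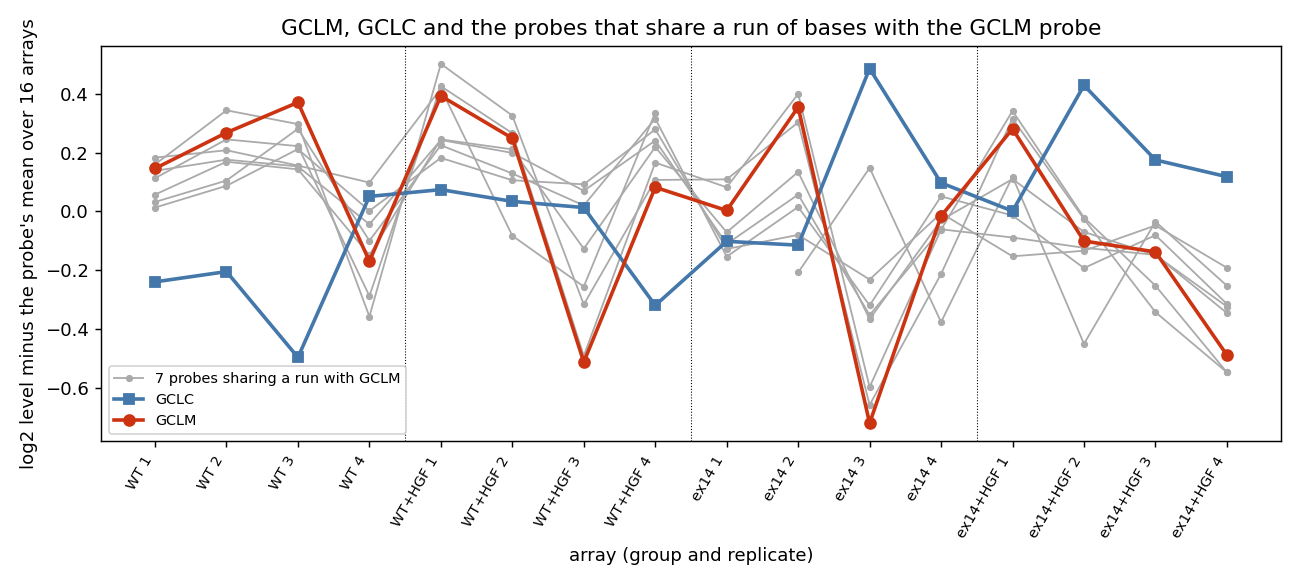
Level of each probe minus its own mean over the 16 arrays (log2, y axis) on every array (x axis, ordered by group and replicate), for GCLM (red), GCLC (blue) and the 7 probes that share a run of at least 16 bases with the GCLM probe (grey). On 16HBE-ex14 replicate 3 GCLM and most grey lines were low (GCLM -0.721, KRBA2 -0.598), while GCLC, the other subunit of the same enzyme, was at its highest on 16HBE-ex14 replicate 3.

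Promoter windows of 300 bases, 250 before to 50 after the start (RefSeq, GRCh38.p14), were at hand for 6 of the genes: NQO1, GCLM, GCLC, TXNRD1, SRXN1 and AKR1C1. The core of the antioxidant response element, searched as TGACNNNGC on both strands, was found for 2 of the 6, GCLM and TXNRD1, and in 13.3% of all 35116 windows. The AP-1 element TGANTCA, a site of FOS and JUN proteins downstream of growth factor receptors, was found for 0 of the 6 and in 7.71% of all windows. A gene was counted if any of its windows matched, whereas the shares count single windows. A gene with several starts, such as TXNRD1, had more chances to match, so the counts and shares are not like for like. The matches are printed with the motif in capitals, in the direction of the gene, so that a core on the opposite strand reads as its complement.
GCLM: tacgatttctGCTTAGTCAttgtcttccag
TXNRD1 first start: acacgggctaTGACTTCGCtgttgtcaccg
TXNRD1 first start, second match: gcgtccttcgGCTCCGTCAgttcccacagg
TXNRD1 second start: gtggatttctGCTTTGTCAttctgactctg

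The GCLM stretch is chr1:93909445-93909474 (minus strand), and its core begins 34 bases before the start. The TXNRD1 stretches are chr12:104215670-104215699, chr12:104215761-104215790 and chr12:104286920-104286949 (plus strand), with cores that begin 99 and 8 bases before the first start and 102 bases before the second. A match describes letters only, and enhancers further away were not searched.

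HMOX1, haem oxygenase, which breaks down haem and is the member most tightly held by BACH1, was the steadiest readout. Its probe (chr22:35790122-35790181, hg19) is printed in 10 spots, whose SD within an array had a median of 0.05. The level of HMOX1 was 3.28, 2.99, 3.14 and 3.20 on the 16HBE-WT arrays and 3.49, 3.54, 3.74 and 3.65 on the 16HBE-ex14 arrays. With HGF it was 2.79, 2.95, 2.87 and 2.91 in 16HBE-WT+HGF and 3.07, 3.39, 3.28 and 3.34 in 16HBE-ex14+HGF. All 4 arrays of 16HBE-ex14 were above all 4 of 16HBE-WT, and likewise with HGF, while in both lines every HGF array was below every array without it.

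HMOX1 was 0.45 higher on the log2 scale in 16HBE-ex14 than in 16HBE-WT cells (SE 0.10, 1.37-fold, limma adjusted p = 0.00421), and 0.39 higher with HGF (SE 0.10, 1.31-fold, adjusted p = 0.00924). Both differences passed the p threshold and stayed below the fold limit. Within slides 1 and 2 the difference was 0.38 and 0.53 without HGF, and 0.36 and 0.42 with it. The order of the groups was 16HBE-ex14, 16HBE-ex14+HGF, 16HBE-WT and 16HBE-WT+HGF, and the arrays of 16HBE-ex14+HGF and 16HBE-WT overlapped.

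The HMOX1 level was 0.27 lower with HGF in 16HBE-WT cells (SE 0.10, 95% interval -0.48 to -0.07) and 0.34 lower in 16HBE-ex14 cells (SE 0.10, interval -0.54 to -0.13). Neither passed, with a limma adjusted p = 0.898 in 16HBE-WT and an adjusted p = 0.0827 in 16HBE-ex14 cells. Groups that lay apart downwards were found for 1.02% of tested probes with HGF in 16HBE-WT and 4.45% in 16HBE-ex14 cells. The adjusted p in 16HBE-ex14 cells ranged from 0.0243 to 0.236 over the alternatives fitted on both slides, and was 0.592 and 0.409 within slides 1 and 2. It was below the threshold in 5 of these 32 fits, with the fold change under the limit in each. The responses of both lines differed by -0.06 (interval -0.35 to 0.23).

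SLC7A11 (chr4:139085433-139085492), the cystine carrier that feeds glutathione synthesis and is also a target of ATF4, was at 4.11, 3.90, 3.62 and 4.21 on the 16HBE-WT arrays. It was at 4.40, 4.48, 4.60 and 4.66 on the 16HBE-ex14 arrays, each above every 16HBE-WT array. With HGF it was at 4.29, 4.33, 4.11 and 3.79 in 16HBE-WT+HGF and at 4.11, 4.35, 4.22 and 4.12 in 16HBE-ex14+HGF, where the lines overlapped.

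SLC7A11 was 0.58 higher in 16HBE-ex14 than in 16HBE-WT cells without HGF (SE 0.14, 1.49-fold, limma adjusted p = 0.0107), just under the fold limit of 1.5, and 0.07 higher with HGF (interval -0.23 to 0.37, adjusted p = 0.793). It passed both limits with normexp background correction (0.65), scaling to the array median (0.71) and scaling to the E1A spike-ins (0.66), and without any 1 of 4 arrays, namely replicate 1 or 4 of 16HBE-WT and replicate 1 or 2 of 16HBE-ex14. Within slides 1 and 2 the difference was 0.43 and 0.72. The HGF difference of SLC7A11 was 0.17 in 16HBE-WT (adjusted p = 1) and -0.34 in 16HBE-ex14 cells (adjusted p = 0.287), where every HGF array was below every other. The difference between these responses was -0.51 (interval -0.93 to -0.08, limma adjusted p = 0.98), so that it failed the correction. SLC7A11 was the only member with an unadjusted p below 0.05 there. Over all tested probes 1600 had an unadjusted p below 0.05 in that contrast and 0 were called.

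**Figure D2:**
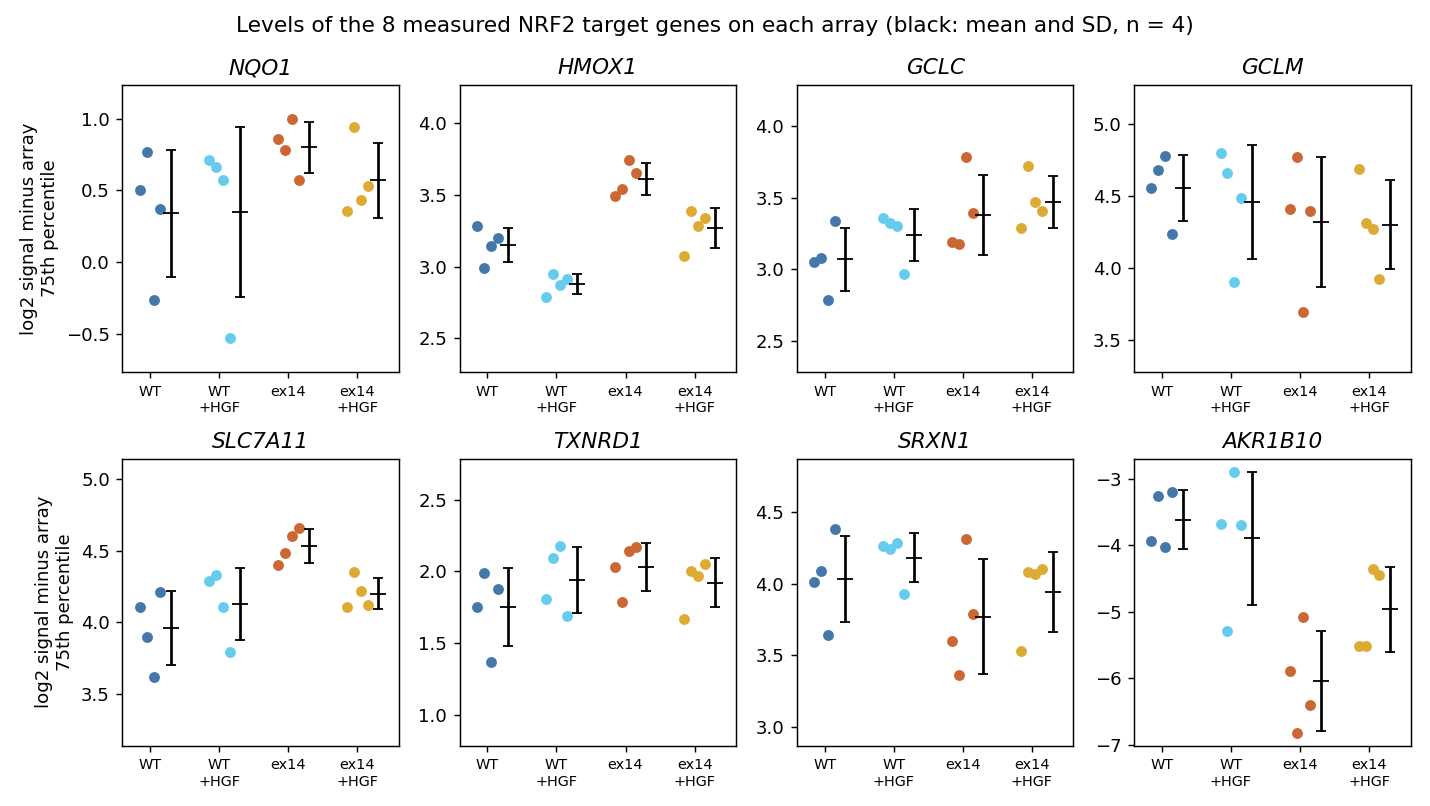
Level of each of the 8 measured genes (log2 processed signal minus the 75th percentile of the array, y axis, each panel with its own range) on the 4 arrays of each group (points), with mean and SD in black. HMOX1 and SLC7A11 of 16HBE-ex14 lie above all 16HBE-WT points, AKR1B10 of 16HBE-ex14 lies below them, and in the other 5 panels those groups overlap.

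AKR1B10, which reduces retinal and lipid aldehydes and is abundant in airway cells with active NRF2, was the only member called in any contrast. Its brighter probe (chr7:134225939-134225998, hg19) gave -3.94, -3.26, -4.03 and -3.19 on the 16HBE-WT arrays, all 4 well above background, and -5.89, -6.82, -5.08 and -6.40 on the 16HBE-ex14 arrays, none of them above background. With HGF it gave -3.68, -5.29, -2.90 and -3.69 in 16HBE-WT+HGF (3 above background) and -5.51, -5.52, -4.36 and -4.45 in 16HBE-ex14+HGF (1 above background). The 16HBE-ex14 arrays lay below all 16HBE-WT arrays, and the HGF groups overlapped. Both AKR1B10 probes passed the filter mainly through the line where they are high, 16HBE-WT. The call and its p-value therefore rest on the spread of 16HBE-ex14 signals at background and are not separate support.

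The fitted difference of AKR1B10 without HGF was -2.44 (SE 0.48, limma adjusted p = 0.00262). Since 16HBE-ex14 was at background, a nominal bound was set at the dimmest signal called above background on each array. It put AKR1B10 1.93-fold lower in 16HBE-ex14 cells. This is not a strict limit, since on 16HBE-ex14 replicate 3 TP63 was called at -4.30 while AKR1C3 was not called at -4.22. The second probe was at -3.92 in 16HBE-WT and -5.88 in 16HBE-ex14 cells (difference -1.96, adjusted p = 0.027), with a nominal bound of 1.56-fold. With normexp, which lifts dim values, the difference was -0.52 (adjusted p = 0.00194), under the fold limit. The brighter 16HBE-ex14 arrays also put a signal at background further below the 75th percentile, and the part of this in the difference was not tested. With HGF the difference between the lines was -1.07 (adjusted p = 0.141), or -1.54 (adjusted p = 0.022) without replicate 2 of 16HBE-WT+HGF. With HGF in 16HBE-ex14 cells the brighter probe differed by 1.08 (adjusted p = 0.317) and the second by -0.19 (adjusted p = 0.933), so no direction is given.

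The relatives of AKR1B10 on the array were read beside it. A probe annotated AKR1B15, whose accessions match both AKR1B10 and AKR1B15, was at -3.63 in 16HBE-WT and -4.66 in 16HBE-ex14 cells. Its nominal bound was 1.78-fold lower (adjusted p = 0.0306). AKR1C3, a reductase of steroids and prostaglandins, was at -2.29, -1.89, -2.52 and -1.81 in 16HBE-WT and at -4.40, -4.39, -4.22 and -4.80 in 16HBE-ex14 cells. AKR1C3 was lower with a nominal bound of 4.7-fold (adjusted p = 0.000169) and was also lower with HGF (difference -1.76, SE 0.32, adjusted p = 0.00124). The AKR1B15 and AKR1C3 probes were well above background on none of the 16HBE-ex14 arrays. With HGF AKR1C3 was above it on 3 of the 16HBE-ex14+HGF arrays and AKR1B15 on 1. Both probes passed the filter mainly through 16HBE-WT cells, where they are high. Their p-values without HGF therefore rest on 16HBE-ex14 signals at background and are not separate support. Of the 6 tested aldo-keto and quinone reductase relatives, 0 were called higher and 2 lower without HGF, beside 4.51% and 4.88% of all tested probes. The 2 were AKR1B15 and AKR1C3, with the same limit, and AKR1B1, NQO2, CBR1 and CBR3 did not pass.

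NQO1 (chr16:69744274-69744333), the quinone reductase that is the usual marker of NRF2 activity, was at 0.50, 0.77, -0.26 and 0.37 in 16HBE-WT, at 0.71, 0.66, 0.57 and -0.53 in 16HBE-WT+HGF, at 0.86, 0.78, 1.00 and 0.57 in 16HBE-ex14 and at 0.36, 0.94, 0.43 and 0.53 in 16HBE-ex14+HGF. Replicate 3 of 16HBE-WT and replicate 4 of 16HBE-WT+HGF were low, and all groups overlapped. NQO1 did not pass in any contrast. Its difference between 16HBE-ex14 and 16HBE-WT cells was 0.46 without HGF (interval -0.11 to 1.03, limma adjusted p = 0.272) and 0.21 with HGF (interval -0.36 to 0.78, adjusted p = 0.647). Its HGF response was 0.01 in 16HBE-WT cells (interval -0.56 to 0.58) and -0.24 in 16HBE-ex14 cells (interval -0.81 to 0.33, adjusted p = 0.775).

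The genes around NQO1 on chromosome 16 had a positive median difference in 16HBE-ex14 as well. The 193 tested genes within 5 Mb of it had a median difference of 0.39 without HGF, and 48 of them were called higher and 4 lower. The medians around HMOX1, SLC7A11, TXNRD1, AKR1B10, GCLC, AKR1C1 and SRXN1 lay between -0.15 and 0.04, and that around GCLM was -0.29, with 10 of 78 called lower. The part of these regional shifts in the NQO1 and GCLM values was not tested.

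GCLC (chr6:53362197-53362256), the catalytic subunit of glutamate-cysteine ligase, which makes the first step of glutathione synthesis, was at 3.05, 3.08, 2.79 and 3.34 in 16HBE-WT and 3.19, 3.18, 3.78 and 3.39 in 16HBE-ex14 cells, with overlap. The difference was 0.31 without HGF (interval -0.02 to 0.65, adjusted p = 0.191) and 0.23 with HGF (interval -0.10 to 0.56, adjusted p = 0.346). Its HGF response was 0.17 in 16HBE-WT and 0.09 in 16HBE-ex14 cells, and both intervals lay within the fold limit in either direction.

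GCLM pointed the other way, at -0.25 without HGF (interval -0.76 to 0.27, adjusted p = 0.546), with an array SD of up to 0.45 and the shared run described above. The 7 probes sharing that run were also at lower means in 16HBE-ex14, with differences of -0.31 to -0.12.

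TXNRD1 (chr12:104732949-104733008), the cytosolic thioredoxin reductase, ranged from 1.37 to 1.99 in 16HBE-WT and from 1.79 to 2.17 in 16HBE-ex14 cells. Its difference was 0.28 without HGF (interval -0.04 to 0.61, adjusted p = 0.232) and -0.02 with HGF (interval -0.35 to 0.30). SRXN1 (chr20:627563-627622), sulfiredoxin, which repairs overoxidised peroxiredoxins, ranged from 3.64 to 4.38 in 16HBE-WT and from 3.36 to 4.31 in 16HBE-ex14 cells. Its difference was -0.26 (interval -0.70 to 0.17, adjusted p = 0.429), opposite in sign to GCLC and TXNRD1. None of these genes passed in any contrast.

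**Figure D3:**
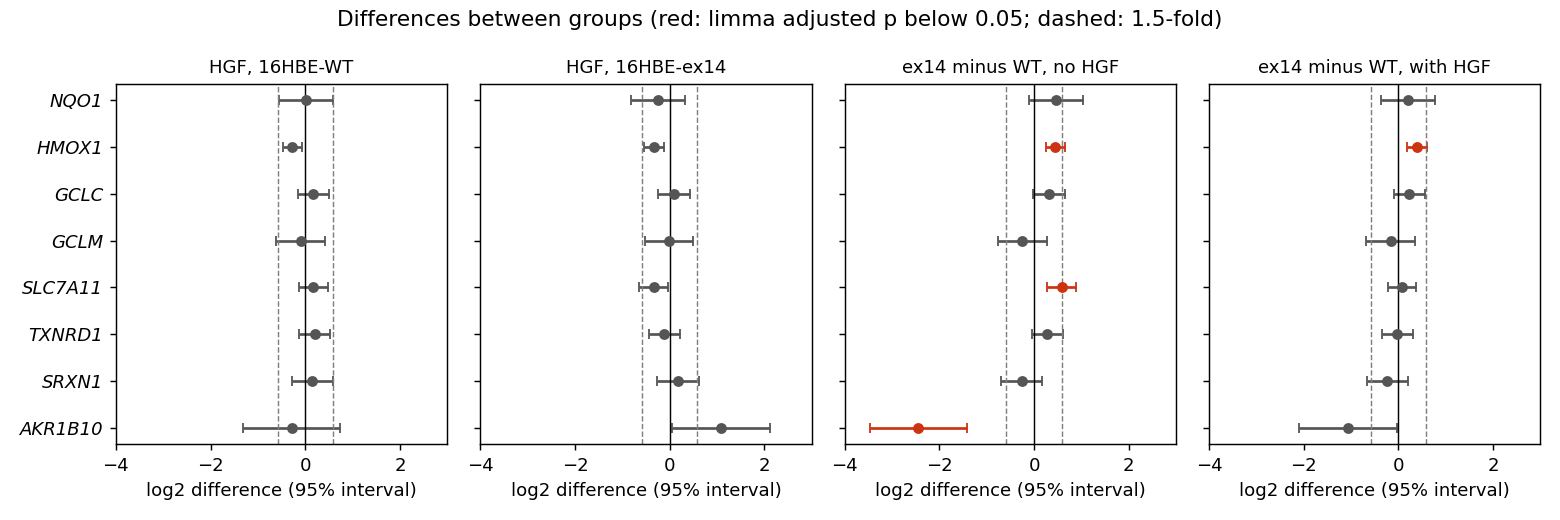
Differences between groups for the 8 measured genes (log2, x axis) with 95% intervals from limma, in 4 contrasts, with 1.5-fold in either direction as dashed lines and an adjusted p below 0.05 in red. Red points are HMOX1, SLC7A11 and AKR1B10 without HGF and HMOX1 with HGF, and no HGF response is red.

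With HGF in 16HBE-WT cells the smallest limma adjusted p of any tested probe was 0.549. Counted over the 8 tested genes, 0 were called with HGF in 16HBE-WT cells, where 0% of all tested probes were called, and 0 in 16HBE-ex14 cells, where 2.00% were. That share rests on 693 probes, which became 346 without replicate 2 and 374 without replicate 4 of 16HBE-ex14, and 377 without replicate 3 and 442 without replicate 4 of 16HBE-ex14+HGF. An unadjusted p below 0.05 was reached by 1 member (of 1694 probes in all) in 16HBE-WT cells and by 3 (of 4914) in 16HBE-ex14 cells. The 95% interval lay within the fold limit for 6 of the 8 in 16HBE-WT cells, all but GCLM and AKR1B10, and for HMOX1, GCLM, GCLC and TXNRD1 in 16HBE-ex14 cells, so that a larger HGF response was outside the interval for those genes. For NQO1, SRXN1, SLC7A11 and AKR1B10 in 16HBE-ex14 cells it was not.

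Between the lines without HGF, 1 of 8 was called, AKR1B10, beside 9.40% of all tested probes. An adjusted p below 0.05 with no fold limit was reached by 3 of 8, beside 18.3% of probes. Groups that did not overlap were found for 3 of 8, 2 higher and 1 lower, beside 21.4% of probes, of which 11.1 percentage points were higher and 10.3 lower. With HGF 0 of 8 were called, beside 10.8% of probes, and HMOX1 alone had an adjusted p below 0.05, beside 20.6%, and groups that did not overlap, beside 23.9% in either direction and 12.2% upwards. In the contrast of the responses 0 of 8 were called, beside 0%. The median difference of the members was 0.30 without HGF and 0.03 with HGF, against -0.02 and 0 for all tested probes, with members on both sides of 0 each time. Scaling to the array median moved the median of all probes from -0.02 to 0.12 without HGF and the share of calls that were higher from 48% to 71.8%, and HMOX1 (0.59) and SLC7A11 (0.71) were then called too.

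Members also varied together between replicates of the same group. Over the 16 deviations from the group means, GCLC and SRXN1 had an r of 0.91, GCLC and SLC7A11 0.78, TXNRD1 and SRXN1 0.76, and NQO1 and SLC7A11 0.71. GCLM went against SRXN1 with an r of -0.76 and AKR1B10 with -0.74. Of the 28 pairs 20 were positive, with a median r of 0.36. Pairs of probes outside the set were not examined in this way, so the values are not shown to be particular to the members. Replicate 3 of 16HBE-WT and replicate 4 of 16HBE-WT+HGF, low for NQO1, were also the lowest of their groups for GCLC, SRXN1, SLC7A11 and TXNRD1. Outside the set, FTL (5.95 and 6.09) and SLC3A2 (4.32 and 4.43) were lowest on these arrays too, while MET (5.18 and 5.14) was highest. These arrays had the highest 75th percentile of their groups, 213 and 191 intensity units, whose part in this was not tested. The probes most like NQO1 over the 16 arrays were RPS14 (r = 0.93), ENST00000509548 (0.92) and NFKBIL1 (0.91), and those most like HMOX1 were REEP5 (0.94), SYNGR2 (0.94) and VGLL1 (0.93), none of them members. The lowest r was -0.90 for CELSR1 with NQO1 and -0.93 for SSH2 with HMOX1.

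Among the regulators of the pathway, BACH1 differed most. The level of this repressor was 1.83, 1.73, 2.13 and 1.89 in 16HBE-WT and 0.74, 0.92, 0.97 and 0.91 in 16HBE-ex14 cells, with no overlap. BACH1 was lower, with a difference of -1.01 (SE 0.11, limma adjusted p = 2.79e-05), and with HGF of -0.95 (SE 0.11, adjusted p = 3.71e-05), and its second probe gave -1.72 and -1.26. The HGF difference of BACH1 was -0.04 in 16HBE-WT and 0.02 in 16HBE-ex14 cells. BACH1 lies on chromosome 21. A regional median was not taken around it, and a regional part in its difference between the lines was not tested. NFE2L2, the gene of NRF2, had 1 probe, above background on none of the 16 arrays, so its level was not measured. MAFG, a small MAF partner of NRF2, was higher in 16HBE-ex14 by 0.31 (SE 0.10, adjusted p = 0.0348), under the fold limit and with no overlap of the arrays, while its second probe gave 0.17 (adjusted p = 0.149). With HGF the MAFG difference was 0.26 (adjusted p = 0.0644). KEAP1 differed by 0.41 (adjusted p = 0.0919) and SQSTM1, which binds KEAP1, by 0.40 (adjusted p = 0.208). Of the 9 tested regulators 0 were called higher and 1 lower in each comparison of the lines. Of all tested probes 4.51% were higher and 4.88% lower there without HGF, and 5.32% and 5.52% with it. No regulator was called for the HGF response in either line.

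Other enzymes and carriers of glutathione and thioredoxin did not move as a block. Of 14 tested genes, 2 were higher and 1 lower in 16HBE-ex14 than in 16HBE-WT cells without HGF, beside 4.51% and 4.88% of all tested probes. GSTM3, a glutathione transferase, was higher by 1.26 (SE 0.16, adjusted p = 0.000107), and ABCC3, an exporter of conjugates, by 1.02 (SE 0.14, adjusted p = 0.000202), while GSTA4, which conjugates lipid aldehydes, was lower (difference -0.84, SE 0.23, adjusted p = 0.0194). With HGF, ABCC3 was higher by 1.00 and GSTP1 and GSTA4 were lower, with differences of -0.78 and -0.92. There 5.32% of all tested probes were called higher and 5.52% lower. With HGF 2 of the 14 were lower and 0 higher in 16HBE-ex14 cells, beside 0.957% and 1.05% of all tested probes. They were GSTM3 (difference -0.94, adjusted p = 0.00624) and GPX4, the peroxidase of membrane lipids (-0.61, adjusted p = 0.00209). SLC3A2, the partner chain of SLC7A11, did not pass, at 0.37 without HGF (adjusted p = 0.178).

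Among 6 tested enzymes that supply NADPH, 0 were called higher and 2 lower, both with and without HGF, beside 4.88% of all tested probes lower without HGF and 5.52% with it. ME1, malic enzyme, was lower (difference -1.23, SE 0.12, adjusted p = 8.83e-06), as was PGD, of the pentose phosphate pathway (-0.65, SE 0.15, adjusted p = 0.00684). With HGF both were lower again, ME1 with a difference of -1.23 (adjusted p = 7.56e-06) and PGD of -0.71 (adjusted p = 0.00332). ME1 lies on chromosome 6. Regional medians were taken only around the members, and a regional part in the ME1 difference was not tested.

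Between the lines, 4.51% of all tested probes were called higher and 4.88% lower without HGF, and 5.32% and 5.52% with it. Of 6 haem and iron genes, SLC40A1, the iron exporter, was called lower without HGF (difference -1.93, SE 0.51, adjusted p = 0.0166) and with it (-1.94), and the other 5 were not called. SLC40A1 was well above background on 1 of the 4 arrays of 16HBE-ex14 and of 16HBE-ex14+HGF. Its probe passed the filter mainly through 16HBE-WT cells, so the size and p-value of its difference are uncertain. Of 7 further genes linked to NRF2, OSGIN1 (0.65) and EPHX1 (0.67) were higher and UGT1A6 (-0.70), whose probe is shared by several UGT1A transcripts, lower without HGF. With HGF 0 were higher and 2 lower, PIR (-0.64) and UGT1A6 (-0.97). In 16HBE-ex14 cells TRIM16L was lower with HGF (-0.75, adjusted p = 0.0153), where 0.957% of all tested probes were called lower. The superoxide dismutases, listed as antioxidant enzymes outside the target set, were both lower without HGF, SOD1 (difference -0.68, adjusted p = 0.00472) and SOD2 (-0.64, adjusted p = 0.000233), whereas CAT did not pass. SOD2 lies on chromosome 6, as ME1 does, OSGIN1 on chromosome 16, as NQO1 does, and SOD1 on chromosome 21, as BACH1 does. No regional median was taken around SOD1, SOD2 or OSGIN1, and a regional part in their differences was not tested.

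Genes of ATF4, the factor of the amino acid response that also drives SLC7A11, were compared for that reason. Of 8 tested, 3 were called higher and 0 lower in 16HBE-ex14 cells, with and without HGF, beside 4.51% of all tested probes higher without HGF and 5.32% with it. These were DDIT3 by 0.90 (SE 0.15, adjusted p = 0.000738), CHAC1, which degrades glutathione, by 0.89 (SE 0.13, adjusted p = 0.00023) and TRIB3 by 0.67 (SE 0.20, adjusted p = 0.0271) without HGF. A dimmer CHAC1 probe gave 0.33 (adjusted p = 0.152). The list median was 0.44 without HGF and 0.40 with HGF. Of 5 genes of the aryl hydrocarbon receptor, which also regulates NQO1, 0 were called without HGF, beside 9.40% of all tested probes. With HGF 2 were called, CYP1B1 (-1.26) and AHRR (-0.64), both lower, beside 5.52% of all tested probes lower.

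**Figure D4:**
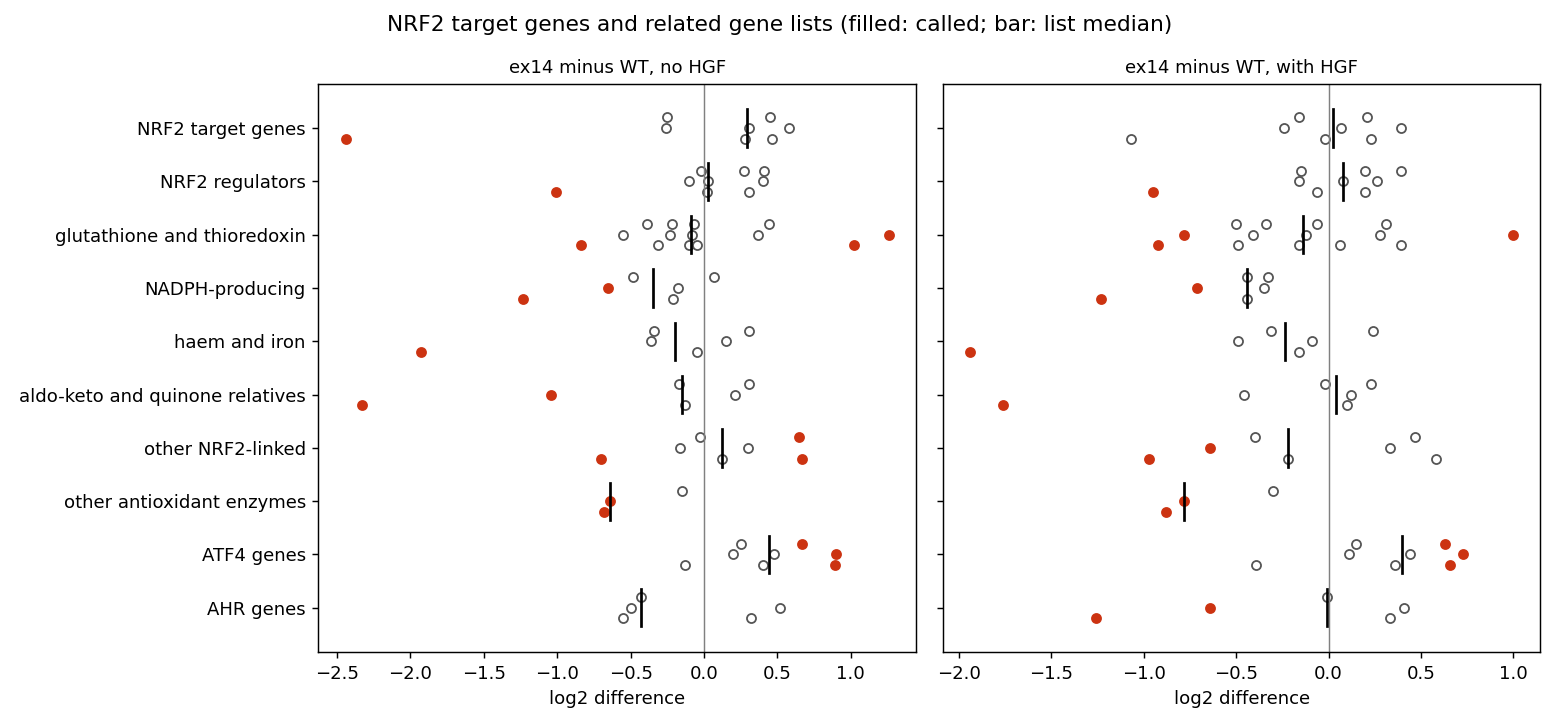
Difference between 16HBE-ex14 and 16HBE-WT cells (log2, x axis) for each tested gene of the NRF2 target set and of 9 related lists (rows), without HGF (left) and with HGF (right), with called genes filled and the median of each list as a bar. The target genes and their relatives lie on both sides of 0, while the NADPH-producing genes lie at or below 0.07. On the left AKR1B10 and AKR1C3 are at fitted differences of -2.44 and -2.33. Neither was above background on any 16HBE-ex14 array, so the size of these differences is uncertain.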

How the data were processed

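The deposited intensity values are the processed signals of Agilent Feature Extraction 10.7.3.1, which the authors obtained from Cy3-labelled cRNA on 60-mer arrays. Per the file headers they are linear, background-subtracted and detrended, with surrogates for low values and no scaling between arrays. A series-wide table, also deposited, repeated these intensities at each of the 62976 spots of every array.

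From these, log2 values were taken, outlier spots left out, the array's 75th percentile subtracted and spots of a probe averaged (R 4.3.3, data.table package 1.17.8, jsonlite 2.0.0). limma 3.58.1 was fitted with 1 mean per group over all 16 arrays, with eBayes and Benjamini-Hochberg within each of 5 contrasts, and was tested on simulated data. Calls used the study's limits, an adjusted p below 0.05 and a fold change above 1.5. The number of arrays limits the precision. The tested probe of highest mean signal represents a gene. Named were the 9 members, up to 4 genes called per list with the largest change, and the closest probes to NQO1 and HMOX1. Other list genes were named after their values were seen. Members and lists were chosen with earlier results of these data known. The mean and background intensity columns deposited by the authors served only for normexp with an offset of 50. Alternatives covered background, scaling, filters, blocks, variance models, call rules and each array left out. Slides on their own were added after seeing the data. Figures and motifs used Python 3.11.15, pandas 2.3.3 and matplotlib 3.10.9. Protein identities were not run. Some gene values and sequences are not reported here.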

Additional observations from a re-analysis of the deposited data

Results flagged for a closer look

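In 4 of 32 groups of 4 arrays examined for the 8 measured genes, 1 array stood apart from the other 3, with a gap past Dixon's 95% critical value. Chance marks about 1 group in 20, and the genes are not independent. Replicate 4 of 16HBE-WT+HGF stood low for NQO1 (-0.53), GCLC (2.97) and SRXN1 (3.93), and replicate 1 of 16HBE-ex14+HGF stood low for SRXN1 (3.53). These arrays had the highest 75th percentile of their groups, at 191 and 262.8 intensity units, and the part of this was not tested. Without replicate 4 of 16HBE-WT+HGF, the difference between 16HBE-ex14 and 16HBE-WT with HGF became -0.08 for NQO1 and -0.04 for SLC7A11, from 0.21 and 0.07.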

How the results depend on the processing

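The counts of members called with HGF in either line, and for the difference of the responses, stayed at 0 under every alternative run. Without HGF the count between the lines, 1 as reported, was 3 with scaling to the array median, 2 with the E1A spike-ins and 3 with no fold limit, and 1 to 2 with 1 array left out (2 without replicate 1 or 4 of 16HBE-WT, or replicate 1 or 2 of 16HBE-ex14). With HGF it was 0 as reported, 1 with no fold limit, and 0 to 1 with 1 array left out (1 without replicate 2 of 16HBE-WT+HGF). Of 40 member differences 27 kept their sign and 13 did not, none of which had passed. Scaling to the array median gave -0.11 for NQO1 with HGF in 16HBE-WT, -0.07 for GCLC with HGF in 16HBE-ex14, 0.07 for TXNRD1 between the lines with HGF and -0.01 for the difference of SRXN1 responses. The E1A spike-ins gave -0.01, 0.02 and -0.02 for NQO1, TXNRD1 and SRXN1 there. Normexp gave 0.03 for TXNRD1 there and 0.02 for AKR1B10 with HGF in 16HBE-WT. Array weights gave 0.01 for GCLM with HGF in 16HBE-WT and -0.11 for its difference of responses, and the second AKR1B10 probe gave -0.19 with HGF in 16HBE-ex14. With 1 array left out, HGF in 16HBE-WT gave -0.19 to 0.30 for NQO1, -0.21 to 0.09 for GCLM and -0.62 to 0.18 for AKR1B10, and HGF in 16HBE-ex14 gave -0.23 to 0.13 for GCLM. Between the lines with HGF it gave -0.08 to 0.33 for NQO1, -0.11 to 0.06 for TXNRD1 and -0.04 to 0.14 for SLC7A11. The difference of responses was -0.10 to 0.01 for HMOX1, -0.12 to 0.23 for GCLM, -0.17 to 0.05 for GCLC and -0.11 to 0.21 for SRXN1. The cause was not tested. The AKR1B10 call without HGF was lost with normexp (-0.52) and within slides 1 and 2 (-2.75 and -2.12, adjusted p = 0.0567 and 0.0875, 2 arrays a group). Replicate numbers mark array rows, and whether a row also held cultures of the same week is not given in the sources used here. Deviations of arrays in the same row correlated at 0.03 to 0.32 (mean 0.19, 24 pairs), and those in different rows at -0.36 to 0.41 (mean -0.06, 72 pairs). All 24 were positive. Deviations sum to 0 within a group, so a positive mean within rows tends to make the mean between rows negative, and the latter is not separate evidence. These values do not settle whether rows pair the arrays, and the main fit did not use the row. With the row as a replicate block, 0, 0, 1, 0 and 0 members were called in the 5 contrasts, as without it. Over all probes the 693, 3252 and 3749 calls for HGF in 16HBE-ex14 and between the lines without and with HGF became 411, 1489 and 1814 with normexp. They became 246 for HGF in 16HBE-ex14 with the compared arrays alone, and 6348 and 7125 between the lines with no fold limit. Adjusting over the 5 contrasts together called 85 probes for HGF in 16HBE-WT and 162 for the difference of responses, instead of 0. For the latter, normexp and the trended and robust prior each called 4, and leaving out 1 array called at most 11, without replicate 3 of 16HBE-ex14. A probe near background gives only a nominal bound, as for AKR1B10, and AKR1C1 and NFE2L2 lay below what the arrays measured.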
